A study of Saccharomyces cerevisiae with 4 samples.

Results

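The PIR genes of *Saccharomyces cerevisiae* encode cell wall proteins with internal repeats. The family was taken as 5 genes by symbol in the probe annotation of the array: *PIR1* (YKL164C), *HSP150* (YJL159W, also called *PIR2*), *PIR3* (YKL163W), *CIS3* (YJL158C, also called *PIR4*) and *PIR5* (YJL160C). They are 5 of the 5656 genes with a probe set that names a single gene, and each of them has 1 such probe set, so that no choice between probe sets was needed. The strain MEY12A lacks *CCW12*, the gene of an abundant GPI-anchored mannoprotein, because *URA3* was inserted there, and it is called *ccw12*Δ. The wild type is SEY6210, a haploid MATα strain. It is named as the parent in the study's design, whereas the source label of the mutant arrays reads SEY6219. Both carry mutant alleles of *URA3*, *LEU2*, *HIS3*, *TRP1*, *LYS2* and *SUC2*, and both were grown in adenine-supplemented YPD to an OD600 of 1. RNA was hybridized to 4 single-colour Affymetrix Yeast Genome S98 arrays, 2 of *ccw12*Δ and 2 of the wild type, and each array received a pool of 3 RNA preparations of its strain. Arrays of the same strain thus hold different pools. The mutant is represented by 1 strain only.

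Pir proteins are secreted, carry many O-linked mannose chains and are cut once by the Golgi protease Kex2p on their way to the surface. In the wall they are attached directly to β-1,3-glucan through an alkali-sensitive bond, which is thought to start from a glutamine of the repeat. Most other covalently bound wall proteins are instead joined through the remnant of a GPI anchor to β-1,6-glucan. Several PIR genes are known as targets of the cell wall integrity (CWI) pathway. Its MAP kinase Slt2p activates the transcription factor Rlm1p when the wall is weakened. The genes also follow the cell cycle, with expression around the passage from mitosis to G1, where Swi5p acts.

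The labels were checked first. *CCW12* gave 4260 and 3919 in *ccw12*Δ, against 24314 and 24118 in the wild type. The source of the signal left in *ccw12*Δ was not tested. The marker *URA3* had 59.5 and 54.2 in *ccw12*Δ, against 3.90 and 6.70 in the wild type. All *URA3* signals lay under the level of 69.0 used to filter genes for testing. The description of wild type replicate 2 names SEY6211, a MATa strain. The 4 MATα-specific genes examined had summed signals of 19359 and 19226 in *ccw12*Δ, against 32818 and 31515 in the wild type. The 6 MATa-specific genes had summed signals of 510 and 424 in *ccw12*Δ, against 368 and 355 in the wild type. By these same probe sets wild type replicate 2 lay close to wild type replicate 1 in both sums. Median signals over all probe sets were 141 and 144 in *ccw12*Δ, against 122 and 118 in the wild type. Wild type replicate 1 stood apart by its 3' to 5' signal ratio, which for *ACT1* was 2.99 there and between 1.38 and 1.49 on the other 3 arrays. For *SPT15* it was 7.12, against 2.87 to 3.69 on the others, and for *SRB4* it was 9.82, against 2.20 to 3.52. Values without wild type replicate 1 are given for the PIR genes, and for other named genes where they change a call or move a called value by over 1.5 times. Of the genes tested with limma, 240 were higher and 27 lower in *ccw12*Δ at an adjusted p under 0.05, or 5.30% and 0.596% of the 4532 tested and 5.89% in either direction. These counts became 43 and 21 with each array centred on its median, and 11 and 16 with each chromosome centred on its own median. The median log2 fold change of all genes, 0.18 as deposited, was then -0.06 and 0.00. It was 0.04 after quantile normalization.

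Of the 4 PIR genes bright enough to be tested, *HSP150* and *PIR3* were higher in *ccw12*Δ, and *CIS3* and *PIR1* did not pass. That is 2 of 4, beside the 5.30% of all tested genes called higher. *PIR5* lay under the filter on dim genes and is described by its signals. In 4 of the 5 genes both *ccw12*Δ signals exceeded both wild-type signals. This held for 36.2% of all measured genes and 37.8% of the tested ones. Among tested genes the share was 83.4% on chromosome X, which holds *HSP150*, *CIS3* and *PIR5*, and 38.4% on chromosome XI. A change in the share of cells at a stage of the cell cycle and a change in RNA per cell cannot be told apart in such cultures.

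**Figure D1:**
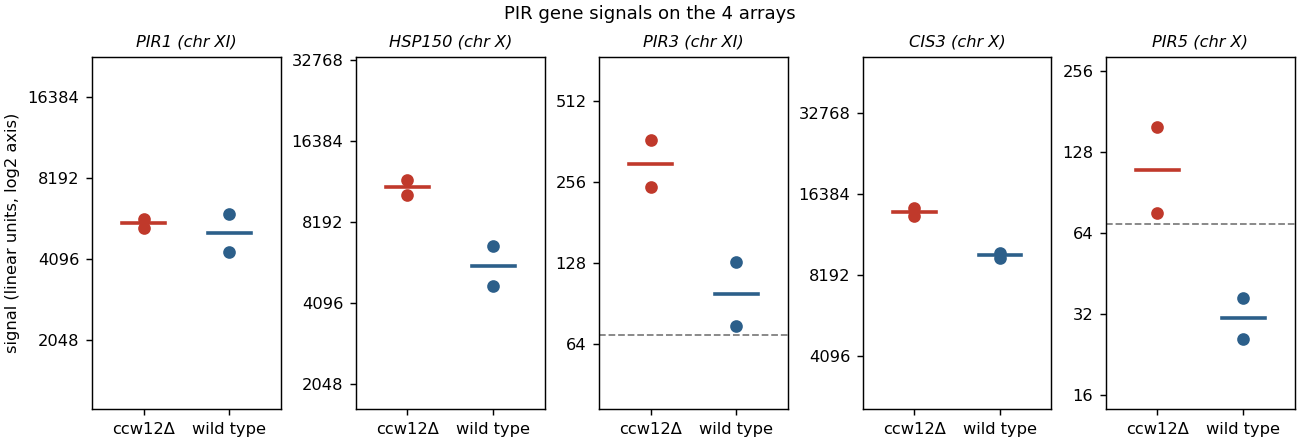
Signal of the 5 PIR genes on each array (points, linear signal units on a log2 axis), ccw12Δ on the left and wild type on the right of each panel, with the mean of the log2 signals as a bar and n = 2 arrays per strain. The dashed line is the filter level of 69.0; the strains overlap only for PIR1, and PIR5 lies under the line on both wild-type arrays.

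*HSP150* codes for a secreted, heat-inducible member of the family. Its signals were 11759 and 10350 in *ccw12*Δ, against 6645 and 4719 in the wild type. Both *ccw12*Δ arrays lay above both wild-type arrays. The gene was called higher, with a difference of 0.98 on the log2 scale (standard error 0.23, 95% interval 0.46 to 1.49, adjusted p = 0.0429 from limma). This is 1.97-fold, and the 4 single ratios spanned 1.56 to 2.49. Its mean fold stays just under the 2-fold cut of the study. The study also required detection and change calls. The fold rule used here has no such calls, and 10.4% of the tested genes met it as higher. Without wild type replicate 1 the log2 fold change was 1.23. The call was lost without *ccw12*Δ replicate 1 (log2 fold change 0.89, adjusted p = 0.209 from limma), without *ccw12*Δ replicate 2 (1.07, adjusted p = 0.129) and under 5 further settings.

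*CIS3*, the gene of a short Pir protein of the vegetative wall, gave 14596 and 13667 in *ccw12*Δ, against 9490 and 9960 in the wild type. The strains did not overlap, and the 2 arrays of each strain were close to each other. The log2 fold change was 0.54 (standard error 0.17, 95% interval 0.15 to 0.93, adjusted p = 0.102 from limma), so the gene did not pass although its unadjusted p was 0.0121. The log2 fold change was 0.50 without wild type replicate 1 and 0.57 without wild type replicate 2. The interval over all 4 arrays leaves out a 2-fold rise. The brightest signal on any array was between 23339 and 25415, and whether bright signals such as those of *CIS3* and *HSP150* were compressed was not tested.

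*PIR5*, the fifth gene of the family, had signals of 75.8 and 157.6 in *ccw12*Δ, against 25.9 and 36.6 in the wild type. Both *ccw12*Δ signals were above the filter level of 69.0 and both wild-type signals were under it. The mean of the *ccw12*Δ log2 signals lay 1.58-fold above that level, which is a cut for testing and not a detection limit. The measured ratios ran from 2.07 to 6.08. The *ccw12*Δ arrays differed from each other by 1.06 on the log2 scale. The SD of such differences was 0.40 over the tested genes, a set that leaves out dim genes such as *PIR5*. When the filter was dropped, *PIR5* differed by 1.83 on the log2 scale (standard error 0.45) and did not pass (adjusted p = 0.0949 from limma).

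*PIR3* on chromosome XI codes for an O-glycosylated wall protein and is a well-known Rlm1p target. Its signals were 244 and 366 in *ccw12*Δ, against 74.6 and 128 in the wild type. Both *ccw12*Δ arrays lay above both wild-type arrays, and wild type replicate 1 was the lowest. The log2 fold change was 1.61 (standard error 0.36, 95% interval 0.79 to 2.43, adjusted p = 0.0391 from limma). This is 3.05-fold, and the 4 single ratios spanned 1.90 to 4.90. Only 92 of the 4532 tested genes had a larger value. Without wild type replicate 1 it was 1.22 and without wild type replicate 2 it was 2.0. Without *ccw12*Δ replicate 2 it was 1.32 and no longer called (adjusted p = 0.155 from limma). *PIR3* lay near the filter level in the wild type, and at the 50th percentile filter it was not tested.

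*PIR1* is the neighbour of *PIR3* on chromosome XI, and its product sits in the wall of growing cells. It had signals of 5787 and 5358 in *ccw12*Δ, against 4371 and 6020 in the wild type. The strains overlapped, and the wild-type arrays differed from each other by more than the strains did. The log2 fold change was 0.12 (standard error 0.24, 95% interval -0.42 to 0.66, adjusted p = 0.810 from limma). A 2-fold rise lies outside this interval. The sign turned to -0.11 without wild type replicate 1 and to -0.13 with arrays centred on their medians.

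*PIR1* and *PIR3* lie next to each other and are transcribed away from each other, as their locus tags show (C for *PIR1*, W for *PIR3*), so that they share the stretch between their starts. Taken within each array, the log2 signal of *PIR3* minus that of *PIR1* was -4.57 and -3.87 in *ccw12*Δ, against -5.87 and -5.55 in the wild type, a shift of 1.49. The strains did not overlap in this measure. *PIR5* and *HSP150* on chromosome X are also a divergent pair, while *HSP150* and *CIS3* run towards each other. Within each array *HSP150* minus *CIS3* was -0.31 and -0.40 in *ccw12*Δ, against -0.51 and -1.08 in the wild type, a shift of 0.44 without overlap. *PIR5* minus *HSP150* was -7.28 and -6.04 in *ccw12*Δ, against -8.00 and -7.01 in the wild type, where *PIR5* lay under the filter level, and the strains overlapped. With 2 arrays against 2, an exact two-sided permutation test of any of these differences cannot go below p = 0.333, so none was run. The differences within an array serve to compare strains and not the levels of 2 probe sets. Pir genes resemble each other in their repeats. Where their probes lie relative to the repeats was not stated in the sources used here, and how much of each signal comes from another member was not tested.

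The chromosomes of the 2 groups of PIR genes differ. Genes of chromosome X were on the whole higher in *ccw12*Δ, with a median log2 fold change of 1.06 over 301 tested genes and 31.2% of them called higher. The median of chromosome XI was 0.21 over 268 genes, with 1.87% called higher. Chromosomes II and IX had medians of 0.94 and 0.89, and the other nuclear chromosomes lay between -0.06 and 0.21. *HSP150* was thus near the middle of its chromosome, where 174 of the 301 tested genes had a larger value. *CIS3* was in the lower part, with 245 of 301 above it. *PIR5* was given no place in this order, since its wild-type signals lay under the filter level and it was not tested. *PIR1* was near the middle of chromosome XI, with 156 of 268 above it. *PIR3* stood near the top, with 2 of 268 above it.

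**Figure D2:**
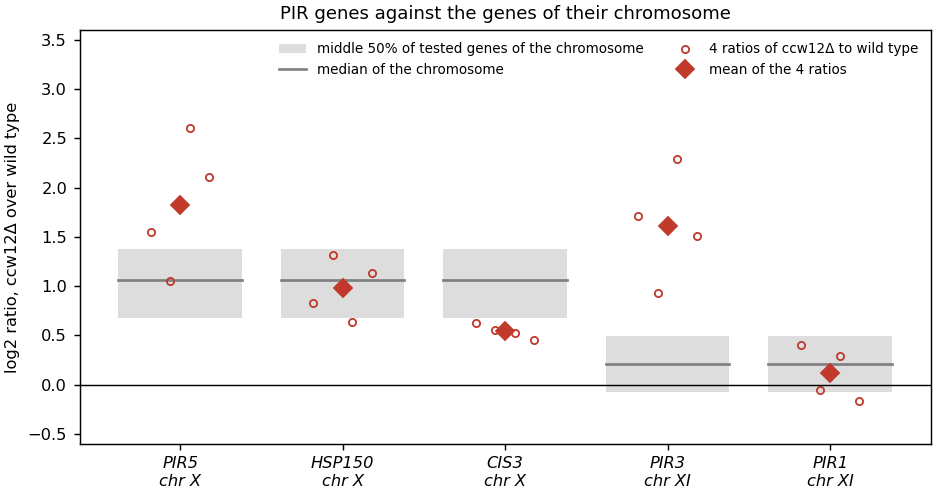
Log2 ratios of ccw12Δ to wild type for the PIR genes, with the 4 ratios as open circles and their mean as a diamond, beside the median (line) and middle 50% (grey box) of the tested genes of the same chromosome. HSP150 and PIR1 lie inside the box of their chromosome, CIS3 below its box and PIR3 above its box; the ratios of PIR5 rest on wild-type signals under the filter level.

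After the median deviation of each chromosome was removed on each array, the log2 difference between *ccw12*Δ and the wild type was -0.09 for *HSP150*, -0.53 for *CIS3* and 0.76 for *PIR5*, the last from wild-type signals under the filter level. It was -0.09 for *PIR1* and 1.40 for *PIR3*. None of the 4 tested genes was called in this setting, with adjusted p-values from limma of 0.894 for *HSP150*, 0.350 for *CIS3*, 0.883 for *PIR1* and 0.165 for *PIR3*. The part of the chromosome in the values of *HSP150* and *CIS3* was not tested beyond this.

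Averaged over each chromosome, the 3 members on X had a mean log2 ratio of 1.11 and the 2 on XI one of 0.86, a difference of 0.25. The mean on X includes *PIR5*, whose wild-type signals lay under the filter level, and was 0.76 without it. Per array, the mean log2 signal of the X members minus that of the XI members was 0.98 and 1.01 in *ccw12*Δ, against 1.04 and 0.45 in the wild type, so that the strains overlapped. The difference was -0.11 without *PIR5* and 1.00 without *PIR3*, and -0.61 with chromosomes centred. It was 0.55 without wild type replicate 1 and -0.05 without wild type replicate 2, so that its sign rests on single arrays. *PIR3* and *PIR1*, both on XI, were thus further apart (1.49) than the means of the members on X and XI.

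The neighbours of the 2 loci were compared next, within 5 annotated genes on each side. On chromosome X, 8 protein-coding neighbours were measured, and in all 8 both *ccw12*Δ signals exceeded both wild-type signals, as in 83.4% of the tested genes of that chromosome. The other 3, *JJJ2*, *FMP33* and *INO1*, lay under the filter, and no size is given for them. The 5 tested ones had log2 fold changes between 1.20 and 2.69 with a median of 1.59, and *HSP150* and *CIS3* were lower than each of these 5. The median is the value of *YJL163C*, with signals of 220 and 180 in *ccw12*Δ, against 74.7 and 58.4 in the wild type. The largest value is that of *FBP26*. For both genes the mean of the wild-type log2 signals lay under the filter level. They were thus tested only through their *ccw12*Δ signals, and the sizes at the middle and top of this range are uncertain. *YJL163C*, *FAR1*, *SSY5* and *FBP26* were called higher. *VPS35* was not, with log2 fold changes of 1.70 without wild type replicate 1 and 0.70 without wild type replicate 2. *FBP26*, coding for fructose-2,6-bisphosphatase, had signals of 312 and 424 in *ccw12*Δ, against 72.3 and 44.0 in the wild type (log2 fold change 2.69, standard error 0.34, adjusted p = 0.0112 from limma). One of its wild-type signals lay under the filter level of 69.0, which leaves the size of this change less certain than its direction. *FAR1*, coding for an inhibitor of the cyclin-dependent kinase in the pheromone response, lies directly beside *CIS3*. It gave 2241 and 2402 in *ccw12*Δ, against 974 and 1016 in the wild type.

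On chromosome XI, 9 protein-coding neighbours were measured and 7 tested, with log2 fold changes between -0.25 and 0.79 and a median of 0.50. None of the 7 was called. In 6 of the 9 both *ccw12*Δ signals lay above both wild-type signals, where 38.4% of the tested genes of the chromosome did so. *KDX1* (also *MLP1*) codes for a paralogue of Slt2p. It had signals of 83.1 and 87.3 in *ccw12*Δ, against 14.8 and 28.4 in the wild type. Its mean lay under the filter, so that it was not tested. *MCD4*, an essential gene of GPI anchor synthesis beyond a tRNA gene on the other side of *PIR1*, gave 1528 and 1586 in *ccw12*Δ, against 1361 and 1590 in the wild type. A tRNA gene at each locus has a probe set of the manufacturer's family type, which many copies share, and is left out of these counts.

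**Figure D3:**
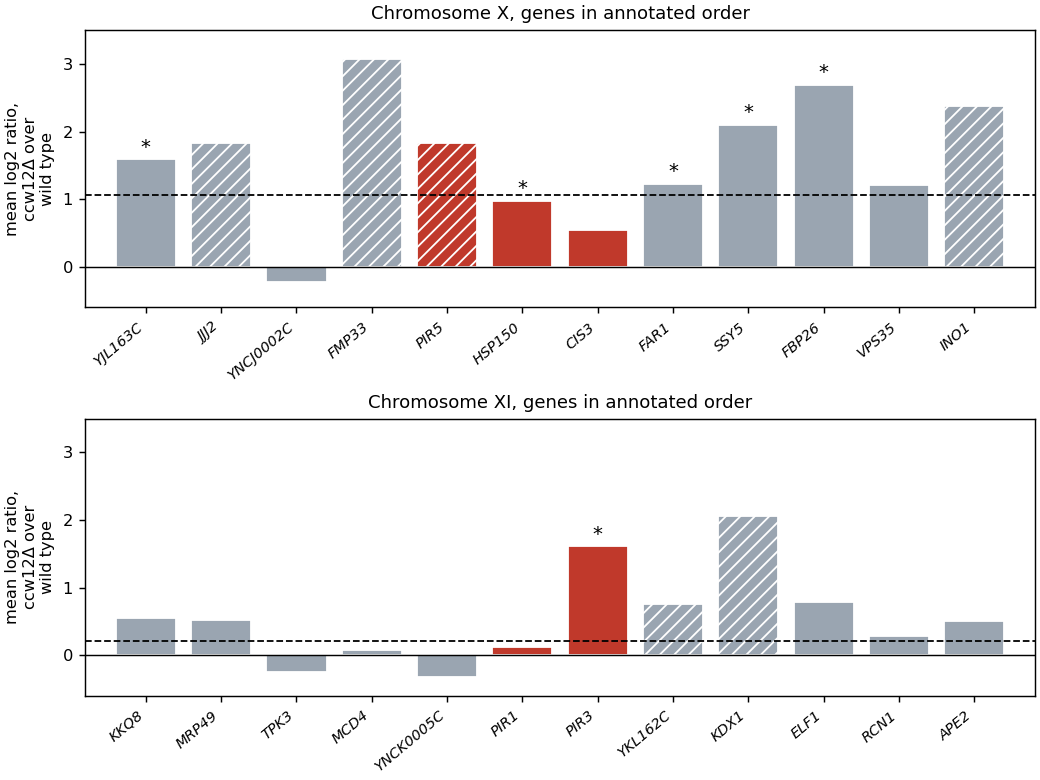
Mean log2 ratio of ccw12Δ to wild type for the PIR genes (red) and the annotated genes around them (grey), in gene order and not to scale along the chromosome. Hatched bars were under the filter and not tested, asterisks mark genes called higher by limma, and the dashed line is the chromosome median of 1.06 (X) or 0.21 (XI). The 5 tested protein-coding neighbours on X lie above HSP150 and CIS3, whereas PIR3 stands above its 7 tested protein-coding neighbours on XI; the height of a hatched bar rests on signals under the filter level.

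The regulators that act on PIR genes were examined next by their RNA levels, which do not measure the activity of the pathway. For this list and those below, 5.30% of all tested genes called higher and 0.596% called lower serve as background. The share called higher was 22.1% on chromosome II, 21.2% on IX and 31.2% on X. On every other chromosome it was 2.54% or less. Of 18 measured genes of CWI signalling and of the transcription factors, 15 were tested. *BCK1* on chromosome X was higher and 14 did not pass, with a list median of 0.21 beside 0.18 for all genes. *RLM1* had signals of 340 and 384 in *ccw12*Δ, against 390 and 250 in the wild type, which overlap (log2 fold change 0.21, adjusted p = 0.738 from limma). *SLT2* had 727 and 677 in *ccw12*Δ, against 359 and 399 in the wild type, without overlap (log2 fold change 0.89, standard error 0.28, adjusted p = 0.0997). Its log2 fold change was 0.81 without wild type replicate 1 and 0.97 without wild type replicate 2. *SWI5* gave 124 and 125 in *ccw12*Δ, against 114 and 75.8 in the wild type (log2 fold change 0.42, adjusted p = 0.495). *BCK1*, coding for the MAP kinase kinase kinase of the pathway, gave 479 and 474 in *ccw12*Δ, against 153 and 148 in the wild type (log2 fold change 1.66, standard error 0.27, adjusted p = 0.0198). With chromosomes centred it was 0.59 higher and not called (adjusted p = 0.392 from limma).

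Of 18 tested genes outside the family, taken from general knowledge as dependent on Rlm1p, 6 were called higher, 12 did not pass and none was lower. Their median log2 fold change was 0.80, beside 0.18 for all genes. By fitted values the first were *FBP26*, with the uncertain size given above, and *NCW2*, a GPI-anchored wall protein gene on chromosome XII. *NCW2* had signals of 1523 and 1371 in *ccw12*Δ, against 403 and 496 in the wild type (log2 fold change 1.69, standard error 0.29, adjusted p = 0.0221 from limma). It kept a call with chromosomes centred, at 1.59 (adjusted p = 0.0479), the only gene of this list that did. All 6 called genes, and *SLT2* and *TOH1* among the others, belong to a cluster that the study described as highly induced. These arrays were part of the data behind that cluster. Neither the count nor the medians of this list are thus independent evidence of a direction. Outside chromosomes II, IX and X the median of the list was 0.51.

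Of 18 tested genes of the passage from mitosis to G1, *CDC6* was higher and 17 did not pass, with a median of 0.14. *CDC6*, coding for a loading factor of the replicative helicase, lies on chromosome X. It gave 971 and 721 in *ccw12*Δ, against 132 and 369 in the wild type (log2 fold change 1.92, standard error 0.46, adjusted p = 0.0467 from limma). Without wild type replicate 1 it was 1.18, and with chromosomes centred it was 0.85 and not called (adjusted p = 0.469 from limma). *PRY3*, also on chromosome X, had 1.49 and did not pass (adjusted p = 0.0832). Its log2 fold change was 0.76 without wild type replicate 1 and 2.22 without wild type replicate 2.

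For the maturation of Pir proteins, 10 genes were tested and none passed, with a median of 0.01. Over all genes 999 had an unadjusted p under 0.05 from limma. *KEX2*, the gene of the protease that trims Pir proteins, had signals of 655 and 544 in *ccw12*Δ, against 428 and 647 in the wild type, which overlap. *PMT4*, an O-mannosyltransferase gene on chromosome X, gave 5416 and 5059 in *ccw12*Δ, against 3267 and 2841 in the wild type (log2 fold change 0.78, adjusted p = 0.0807 from limma). With chromosomes centred its sign turned, to -0.29. Its log2 fold change was 0.88 without wild type replicate 1 and 0.68 without wild type replicate 2.

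Among 26 tested genes of GPI-linked wall proteins, 3 were higher, 3 lower and 20 did not pass, with a median of -0.12. The 3 lower genes include *CCW12*, which was deleted in *ccw12*Δ, so that its call is no result about the list. *FIT2*, a mannoprotein gene of iron uptake, gave 1835 and 1091 in *ccw12*Δ, against 204 and 493 in the wild type (log2 fold change 2.16, standard error 0.45, adjusted p = 0.0337 from limma), and *NCW2* was next. *FIT2* was 1.52 without wild type replicate 1, and with chromosomes centred it was 2.07 and not called (adjusted p = 0.127 from limma). *CCW12* itself and *FLO11* were the largest falls. *FLO11*, the flocculin gene of invasive growth, gave 258 and 289 in *ccw12*Δ, against 969 and 782 in the wild type (log2 fold change -1.67, standard error 0.29, adjusted p = 0.0232). Of 12 soluble wall protein genes, *NCA3* and *SIM1* were higher and 10 did not pass, with a median of 0.07. *NCA3* on chromosome X was higher by 1.91 (standard error 0.29, adjusted p = 0.0166) and *SIM1* on chromosome IX by 1.13 (standard error 0.26, adjusted p = 0.0408). Neither was called with chromosomes centred, at 0.84 and 0.26. With 1 *ccw12*Δ array left out, *YJL163C*, *FAR1*, *BCK1*, *NCW2*, *FLO11*, *NCA3* and *SIM1* lost their call in at least 1 of these fits, with the same sign in each.

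**Figure D4:**
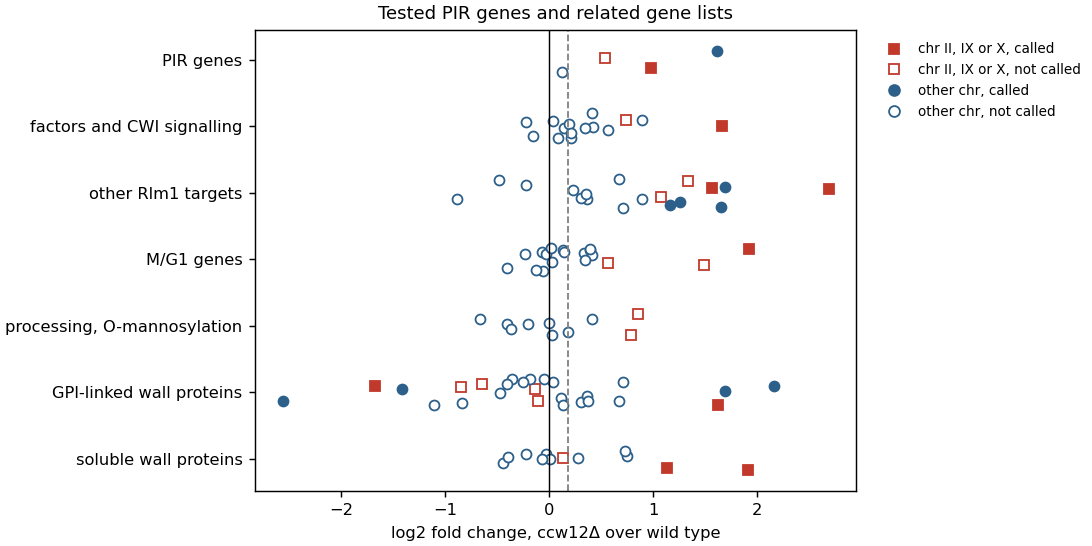
Log2 fold change of ccw12Δ over wild type from limma for the 4 tested PIR genes and the tested genes of 6 related lists. Squares are genes of chromosomes II, IX or X, circles genes of other chromosomes, filled symbols passed at an adjusted p under 0.05, and the dashed line is the median of all genes at 0.18. PIR3 is the one called PIR gene outside those chromosomes.

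The dependence of the 4 tested PIR genes on the processing is shown as a plot of settings. *PIR3* kept a log2 fold change between 1.22 and 2.0 over 14 alternative settings and was called in 8 of them. *HSP150* was called in 8 of 15 and *CIS3* in 4 of 15. *PIR1* was called in none, with its value between -0.13 and 0.35.

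**Figure D5:**
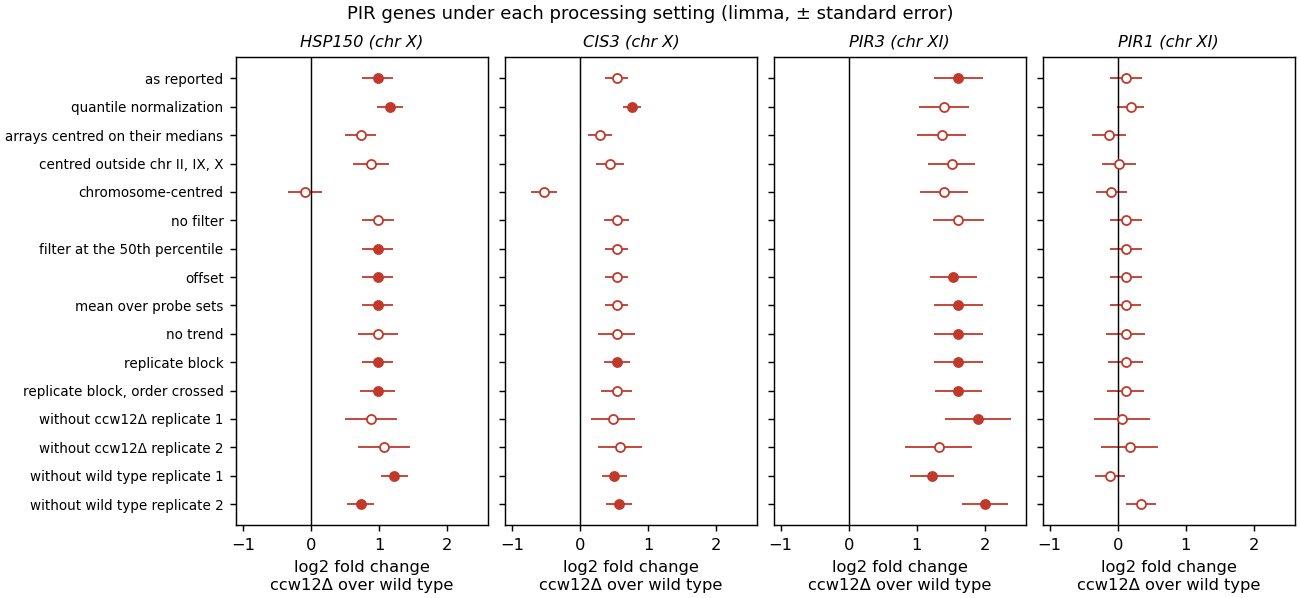
Log2 fold change of ccw12Δ over wild type with its standard error (limma) for the tested PIR genes, as reported and under each alternative setting. Filled points have an adjusted p under 0.05; PIR3 stays above 1 in each setting shown, while HSP150 and CIS3 fall to -0.09 and -0.53 with chromosomes centred.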

How the data were processed

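The authors scanned the arrays, converted the scans to signals with GCOS and deposited 1 linear intensity per probe set and array; the submitters' notes name MAS5. For the version and the scaling target no statement was found in the sources used here. Of 9335 probe sets, 60 were controls. Probe sets naming 1 gene (6504) were matched by gene identifier to the RefSeq table of the R64 assembly, and the brightest stood for each of 5656 genes. A floor of 0.1 replaced 19 signals of zero before log2. Testing was limited to the 4532 genes whose log2 signals averaged 6.11 or more (the 25th percentile of these probe sets). Depth does not apply to arrays, and their number limits the precision.

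The test was that of limma 3.58.1 (R 4.3.3; lmFit, eBayes with a trend) over all 4 arrays, with Benjamini-Hochberg adjustment over all genes tested. The p-values rest on the spread between 2 pools per strain and on limma's prior, which had 6.71 degrees of freedom. A fold rule after the study's methods, but without its detection and change calls, required a mean log2 ratio of 1 or more with all 4 ratios in 1 direction. Alternatives were quantile normalization, 3 centrings, 2 other filters, an offset of 7.30, the mean over probe sets, no trend, a replicate block and each array left out. The calculation was run on simulated signals with independent noise of equal SD for all genes and no shifted chromosomes. These settings differ from the arrays, so that the run checks the code and not the calls. The members and gene lists were chosen with earlier results of these data known. Named genes were the members, *CCW12* and *URA3*, the neighbours, up to 2 rises and 2 falls that passed in each list, set regulators and the 3 genes nearest each tested member. *PRY3*, *KEX2* and *PMT4* were added after their values were seen. No sequences or detection calls were used. Some genes of these lists and loci are not reported here.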

Additional observations from a re-analysis of the deposited data

How the results depend on the processing

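The number of tested PIR genes called, 2 as reported, was 0 with arrays centred on their medians, with arrays centred on genes away from chromosomes II, IX and X, with chromosomes centred and without the filter. It was 1 at the 50th percentile filter and without the trend, and between 0 and 3 with 1 array left out. *HSP150* was not called with arrays centred on their medians (log2 fold change 0.73), on genes outside those chromosomes (0.88), without the filter or without the trend (0.98 in both), and it turned to -0.091 with chromosomes centred. With 1 array left out it ranged between 0.73 and 1.23. *PIR3* was not called after quantile normalization (1.40), with each array centred on its median (1.37) or on genes outside those chromosomes (1.51), with chromosomes centred (1.40) or without the filter (1.61), and ranged between 1.22 and 2.0 with 1 array left out. *CIS3* was called after quantile normalization (0.76), with the replicate block (0.54, adjusted p = 0.0385 from limma; 0.131 with the order of the block crossed) and without either wild-type array, ranged between 0.49 and 0.59 with 1 array left out, and turned to -0.53 with chromosomes centred. *PIR1* turned to -0.13 with arrays centred on their medians and to -0.092 with chromosomes centred, and ranged between -0.11 and 0.35 with 1 array left out. The difference of X and XI members moved to -0.61 with chromosomes centred, and ranged between -0.05 and 0.55 with 1 array left out. The cause of these changes was not tested.

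Over all genes, 267 were called as reported. It was 64 with each array centred on its median, 115 after quantile normalization, 70 with arrays centred on genes outside the 3 chromosomes, 27 with chromosomes centred, 39 without the filter, and between 76 and 1433 with 1 array left out. In those fits the lone array of a strain is assumed to vary like the pair of the other. The SD of the log2 difference between arrays was 0.40 for *ccw12*Δ and 0.63 for the wild type. Calls without a wild-type array thus rest on the smaller spread, that of *ccw12*Δ. The replicate number as a block gave 625 calls, and the same with the order crossed, a setting chosen after seeing the data because same-numbered deviations correlated at -0.14. The numbers come from the titles, and nothing there says that they pair the cultures.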

Other observations

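Genes with the most similar pattern over the 4 arrays were sought for each tested PIR gene, by the Euclidean distance between log2 signals centred on the mean of each gene. This is a description over 4 arrays. The nearest to *PIR3* were *SLM4* and *SAF1* on chromosome II and *IML1* on chromosome X, at distances of 0.13, 0.13 and 0.18. *SLM4* had signals of 545 and 722 in *ccw12*Δ, against 160 and 275 in the wild type. The nearest to *HSP150* were *NNR1*, *YBR284W* and *CLN1*, at 0.03, 0.11 and 0.12. *CLN1*, a G1 cyclin gene on chromosome XIII, gave 553 and 499 in *ccw12*Δ, against 299 and 238 in the wild type. The nearest to *CIS3* were *PSF3*, *SUP45* and *DUG3*, and the nearest to *PIR1* were *SSA1*, *RDS2* and *MSS4*. *SSA1*, coding for a cytosolic Hsp70 chaperone, gave 14526 and 13341 in *ccw12*Δ, against 10906 and 15167 in the wild type. No PIR gene was among the 3 nearest of another. Among the 4 tested members, *PIR1* and *CIS3* were the closest pair at 0.50 and *PIR1* and *PIR3* the farthest apart at 1.59.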
